A study of Mus musculus with 12 samples.

Results

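Prohormone processing and granule cargo genes were examined in MIN6 cells, an insulin-secreting beta-cell line that came from a mouse insulinoma. The 10 genes were taken by name from the tables of counts and FPKM: Pcsk1, Pcsk2, Cpe, Pcsk1n, Scg5, Pam, Scg2, Scg3, Vgf and Ptprn. They are 10 of the 54022 genes in the tables, and all 10 are among the 16222 genes tested. The wild-type cells received vehicle or the gut-derived metabolite trimethylamine N-oxide (TMAO, 100 nM) for 18 h and were then kept in low or high glucose, which gives 4 conditions with 3 biological replicates each. The names LGveh and LGTMAO stand for low glucose with vehicle and with TMAO, and HGveh and HGTMAO for high glucose with the same treatments. Every library comes from the same line, which limits the data to transformed beta-like cells in culture. The comparisons ask whether glucose or TMAO moved the transcripts of the machinery that makes mature insulin and its granule.

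Insulin and other peptide hormones are made as long precursors that are cut inside the dense-core secretory granule. Prohormone convertases cleave at pairs of basic residues, a carboxypeptidase trims the exposed basic residues, and some peptides are then amidated at their end. Granins and related proteins are packed with the hormone, help the granule form and are released with it, and a few of them are themselves precursors of active peptides. In the beta cell this pathway turns proinsulin into insulin and C-peptide.

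The genes differ in base composition, which bears on comparisons between libraries, so the first 90 coding bases of 5 of them are shown, 5′ to 3′, with G and C in capitals. They were read from the GENCODE M21 transcripts. Over its longest transcript Vgf has the highest GC content of the 10 genes (64.1%), Ptprn and Pcsk1n follow (59.5% and 57.3%), Scg3 is near the low end (46.5%), and Pcsk1 is the lowest (40.6%).
Vgf: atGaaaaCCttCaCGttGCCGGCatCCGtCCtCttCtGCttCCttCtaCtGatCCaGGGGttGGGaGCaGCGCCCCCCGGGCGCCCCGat
Ptprn: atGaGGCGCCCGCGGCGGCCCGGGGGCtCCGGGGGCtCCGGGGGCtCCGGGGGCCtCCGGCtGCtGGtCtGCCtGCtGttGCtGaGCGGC
Pcsk1n: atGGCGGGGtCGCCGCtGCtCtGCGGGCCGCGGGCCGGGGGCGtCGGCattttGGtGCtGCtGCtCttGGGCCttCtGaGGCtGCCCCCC
Scg3: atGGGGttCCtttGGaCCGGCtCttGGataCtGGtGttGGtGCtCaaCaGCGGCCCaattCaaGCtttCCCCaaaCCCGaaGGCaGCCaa
Pcsk1: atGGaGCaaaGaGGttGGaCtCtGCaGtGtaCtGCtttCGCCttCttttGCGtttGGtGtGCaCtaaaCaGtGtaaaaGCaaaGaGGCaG
G and C made up 62.2% of the printed Vgf bases, 81.1% of those of Ptprn, 74.4% of those of Pcsk1n, 55.6% of those of Scg3 and 46.7% of those of Pcsk1. Over the whole coding sequence the shares were 65.6%, 59.8%, 72.1%, 44.9% and 45.8%.

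RefSeq promoter sequences (build GRCm38.p6) matched 8 of the 10 genes, all but Vgf and Cpe, and the 250 bases before each start were searched on both strands. The cyclic AMP response element, TGACGTCA, was present in the windows of Scg2 and Pcsk1, and in 1.55% of all 32851 promoter windows. These matches are shown with the bases around them because cyclic AMP and calcium signalling through this element is a textbook input to neuroendocrine genes; the capitals mark the element. The first lies at chr1:79440076-79440105 on the minus strand, and the second at chr13:75089768-75089797 on the plus strand. The element begins 68 bases before the RefSeq start of Scg2 and 78 bases before that of Pcsk1. GENCODE M21, whose coordinates the count table has, places the start of Scg2 further upstream, at 79440120, so the printed Scg2 bases lie within the gene by that annotation, while the printed Pcsk1 bases lie before its start there (75089826).
Scg2: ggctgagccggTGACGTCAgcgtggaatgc
Pcsk1: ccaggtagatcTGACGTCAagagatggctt
The shorter motif TGACG, which the full element contains, was found for 6 of the 8 genes (Pcsk1, Pcsk2, Ptprn, Scg2, Scg3 and Scg5). It was found in 17.8% of all windows. The E-box CACGTG was found for 0 of the 8 genes (6.02% of all windows). The TATA box letters TATAAA were found for 0 of the 8 genes (12.4% of all windows). The members are counted as genes and the background as windows, so the units differ. A match in letters is a description of the window only.

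Between 16793162 and 22340542 fragments were counted on genes in each library, and the 10 genes took between 1.24% and 1.33% of them. The lowest count of any of the 10 in any library was 4003 (Scg5), so none of them rested on low counts. Beta cell markers were high: Ins2, 1 of the 2 mouse insulin genes, was the most abundant gene of all by FPKM (mean over 12 libraries 25489), and Mafa and Pdx1 had means of 644 and 187. The alpha cell products Gcg and Ttr were also present, with means of 216 and 634 FPKM, while the alpha cell factor Irx1 did not exceed 0.102 FPKM in any library. Hhex (delta cells), Prss2 (acinar cells), Col3a1 and Pdgfra (fibroblasts) and Ptprc (leukocytes) were at 0 in all libraries. The other markers of those cell types were low but not all absent, with means of 1.39 FPKM for Sst (delta cells), 0.962 for Cela1 and 0.0047 for Cpa1 (acinar cells), 0.403 for Col1a1 (fibroblasts) and 4.04 for Cd68 (immune cells). Because each library is a whole culture, fewer cells of a type and less RNA per cell cannot be told apart.

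Scg2, a granule cargo protein, and Cpe, the trimming enzyme, were the most abundant of the 10 genes, and Pcsk1, a convertase, and Pam, the amidating enzyme, the least. Levels here are FPKM, fragments scaled to gene length and library size, averaged over the 12 libraries, and they are the scale on which genes are compared with each other. Scg2 (secretogranin II, an acidic granin and peptide precursor) had a mean of 1490.6 and ranked 8 of 54022 genes, next to Chga (chromogranin A, 1800.3, rank 7). Cpe (carboxypeptidase E, which removes the basic residues left by the convertases) followed with 1339.6 and rank 11. Scg3 (secretogranin III, which links granins to the granule membrane) had a mean of 326, Ptprn (IA-2, a transmembrane protein of the granule) 274 and Vgf (a granule protein and precursor of several peptides) 234. The 3 together spanned ranks 67 to 107.

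The convertases had lower levels. Pcsk2 had a mean of 178.5 FPKM and Pcsk1 of 70.8, rank 161 for the former. Their binding partners were of the same order: Pcsk1n (proSAAS, an inhibitor of Pcsk1) had a mean of 200.1 and Scg5 (the chaperone that Pcsk2 needs to become active) 152. Pam (the monooxygenase that amidates peptide ends) was the lowest at 35.8, rank 1622, close to Ptprn2 (the paralog of Ptprn) at 29.2. Ins1 (4666 FPKM) and Ins2 lay above all 10 genes, and Chgb (chromogranin B, 646) lay between Cpe and Scg3. The less abundant convertase still stood within the top 677 of 54022 genes.

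The levels were stable across the 12 libraries. The ratio of the highest to the lowest library ran from 1.07 for Pcsk2 to 1.25 for Pcsk1n in 9 of the genes and reached 1.36 for Vgf. The mean within-condition coefficient of variation was between 2.08% (Pcsk2) and 6.50% (Pcsk1n). When the 4 conditions were put in order of mean FPKM for each gene, the highest mean exceeded the lowest by a factor of 1.02 (Scg5) to 1.11 (Pcsk1n), and by 1.24 for Vgf. Neighbours in that order overlapped in their libraries for 8 genes. The exceptions were Scg3, whose HGveh and HGTMAO libraries did not overlap, and Vgf, whose LGTMAO and HGTMAO libraries did not.

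**Figure D1:**
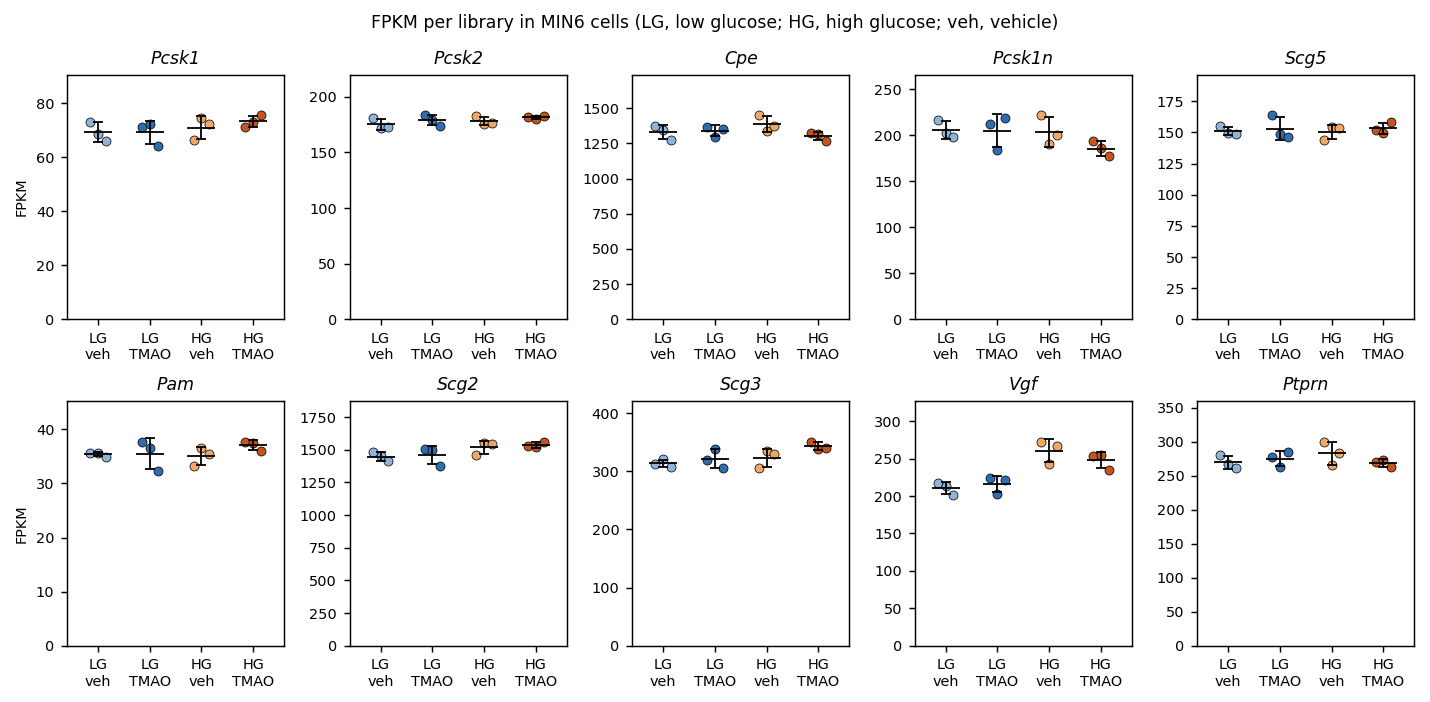
FPKM of each of the 10 genes in the 12 libraries (points), with the mean and SD of the 3 replicates of each condition (bars), every axis starting at 0. Vgf is the gene whose 6 high glucose libraries (235 to 273 FPKM) all lie above its 6 low glucose libraries (201 to 224).

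Vgf was the member that passed the adjusted p threshold for glucose. In LGveh its FPKM was 218, 214 and 201, and in HGveh 273, 243 and 267. In LGTMAO it was 224, 203 and 221, and in HGTMAO 253, 255 and 235. All high glucose libraries were above all low glucose libraries, with either treatment. The mean rose from 211 ± 8.52 (SD, n = 3) to 261 ± 15.4 with vehicle and from 216 ± 11.2 to 248 ± 10.8 with TMAO.

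Tested with edgeR (quasi-likelihood F test, p-values adjusted by Benjamini-Hochberg over all 16222 genes), Vgf was 23.9% higher in high than in low glucose with vehicle (95% CI 15.7% to 32.7%, log2 fold change 0.31 ± 0.048 SE, adjusted p = 7.72e-05). With TMAO it was 14.7% higher (95% CI 7.16% to 22.9%, log2 fold change 0.20 ± 0.048 SE, adjusted p = 0.0143). Averaged over both treatments it was 19.2% higher (95% CI 13.6% to 25.2%, adjusted p = 3.57e-06). The difference between the glucose responses with TMAO and with vehicle was -0.11 ± 0.068 SE on the log2 scale, with a 95% CI of -0.25 to 0.03 (unadjusted p = 0.114, adjusted p = 0.9998 in the same test), so the sizes with the 2 treatments were not told apart. With a correction for GC content, chosen after the data had been seen, the response with TMAO was 0.30 and the difference turned to 0.0075. The rise with vehicle was called in each of the 10 alternative settings and without each of the 6 libraries in turn. The rise with TMAO lost its call without LGTMAO replicate 2 (log2 fold change 0.16, adjusted p = 0.0800), HGTMAO replicate 1 (0.19, adjusted p = 0.0701) or HGTMAO replicate 2 (0.18, adjusted p = 0.0992), and with limma on the FPKM values (adjusted p = 0.0975 with a pseudocount of 1 and 0.0955 with 0.1).

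Vgf was 1 of 10 members called with vehicle (1 higher and 0 lower), where 3.30% of all genes tested were called and 1.99% were called higher. With TMAO it was again the 1 member called, where 3.64% of all genes were called and 2.0% were called higher, and in the average over treatments likewise, beside 8.19% and 4.13%. Its change was of modest size among these genes: by log2 fold change Vgf was number 234 of the 323 genes called higher with vehicle, whose median was 0.51, and number 299 of 325 with TMAO, whose median was 0.48. With vehicle, the summed FPKM of 10 beta cell markers ran from 40426 to 43936 in low glucose. In high glucose it ran from 44089 to 45657, without overlap. With TMAO the sum ran from 39418 to 45057 in low and from 43736 to 46810 in high glucose, with overlap. The alpha cell products moved the same way within each treatment, without overlap. With vehicle, Gcg ran from 202 to 216 FPKM in low and from 223 to 227 in high glucose, and Ttr from 589 to 629.5 and from 629.9 to 683. With TMAO, Gcg ran from 199.6 to 212 and from 222 to 226, and Ttr from 567 to 649 and from 653 to 679.5. The immune marker Cd68 ran from 2.88 to 4.10 FPKM in low and from 4.12 to 4.84 in high glucose. The part of these shifts in the rise of Vgf was not tested.

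**Figure D2:**
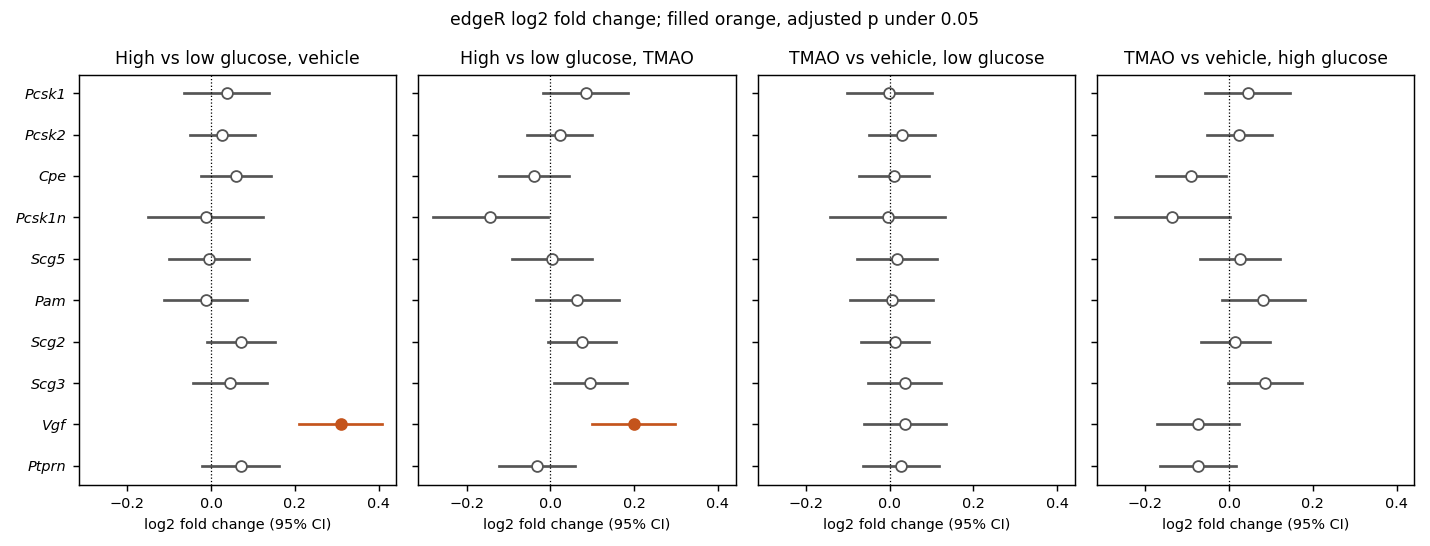
Log2 fold change (point) and 95% confidence interval (line) of each gene in 4 comparisons, from edgeR, with genes called at an adjusted p under 0.05 in filled orange. Vgf is called for glucose with vehicle (0.31) and with TMAO (0.20), and no gene is called for TMAO at either glucose level.

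The convertases, their partners and the finishing enzymes did not pass the test for glucose. With vehicle, the log2 fold changes of the other 9 members lay between -0.013 and 0.072, and their 95% intervals ran from -9.87% (Pcsk1n) to 11.8% (Ptprn). The narrowest of these intervals was that of Pcsk2, from -3.51% to 7.53%. At an unadjusted p under 0.05 Vgf was still the only member of 10, where 13.0% of all genes reached it. In library values, too, Vgf was the 1 member whose glucose groups did not overlap with vehicle, where 18.8% of all genes did not overlap and 9.28% were separated with high glucose above.

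With TMAO, more members had glucose groups that did not overlap in library values. The difference between the glucose responses with TMAO and with vehicle was called for 0 members by edgeR. The 3 members whose normalized counts did not overlap, all with high glucose above, were Scg2, Scg3 and Vgf, where 18.4% of all genes did not overlap and 8.98% were separated in that direction. Scg2 had 1502, 1497 and 1379 FPKM in LGTMAO and 1526, 1521 and 1562 in HGTMAO. Its 3 high glucose libraries were the higher ones, by a small margin against the first pair of low glucose libraries. The log2 fold change was 0.08 ± 0.040 SE (edgeR adjusted p = 0.394), and it was 0.07 ± 0.040 with vehicle (adjusted p = 0.464). In the average over treatments it was 0.07 ± 0.028 (adjusted p = 0.112), with a 95% interval of 1.13% to 9.52% higher. Scg2 was called in that average without HGveh replicate 1 (log2 fold change 0.09, adjusted p = 0.0457).

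Scg3 had 320, 339 and 306 FPKM in LGTMAO and 351, 338 and 341 in HGTMAO. The groups touched on this scale, since LGTMAO replicate 2 (338.7) lay just above HGTMAO replicate 2 (337.9), and were separated by a narrow gap as normalized counts (17509 against 17527). The log2 fold change with TMAO was 0.10 ± 0.043 SE (edgeR unadjusted p = 0.0345, adjusted p = 0.287). In the average over treatments it was 0.07 ± 0.030 (adjusted p = 0.173), where 20.1% of all genes had an unadjusted p under 0.05 and 3 of the 10 members did (Scg2, Scg3 and Vgf).

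Pcsk1n was the member with the lowest value for glucose with TMAO. Its FPKM was 213, 184 and 219 in LGTMAO and 193, 186 and 178 in HGTMAO, so that LGTMAO replicate 2 lay within the high glucose range. The log2 fold change was -0.14 ± 0.065 SE, with a 95% interval from -17.7% to -0.438% (edgeR unadjusted p = 0.0414, adjusted p = 0.313). Without LGTMAO replicate 2 it was -0.21 and was called (adjusted p = 0.0245), and with no filter on low counts it was -0.15 and was called (adjusted p = 0.0466). With a correction for GC content, described with the base composition results, it shrank to -0.08 (adjusted p = 0.320). Pcsk1n, Scg3 and Vgf were the 3 of 10 members with an unadjusted p under 0.05 for glucose with TMAO, where 14.7% of all genes had one.

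The remaining members stayed within narrow ranges. Over all 12 libraries Pcsk1, the convertase that makes the first cut of proinsulin, ran from 64.2 to 75.6 FPKM and Pcsk2, its partner convertase, from 172 to 183. Scg5 ran from 144 to 164, Pam from 32.2 to 37.7 and Ptprn from 262 to 300.1. For the glucose comparison averaged over treatments, the log2 fold changes of these genes were 0.06 (Pcsk1), 0.02 (Pcsk2), -0.00097 (Scg5), 0.03 (Pam) and 0.02 (Ptprn), and that of Cpe was 0.01. Their edgeR adjusted p-values were between 0.354 (Pcsk1) and 0.994 (Scg5).

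TMAO left 0 of the 10 members called at either glucose level. In low glucose, 1 of all 16222 genes was called by edgeR (0.00616%). The members' log2 fold changes lay between -0.0049 and 0.037, with 95% intervals from -9.36% to 9.85%, and 0 members had an unadjusted p under 0.05, where 2.20% of all genes had one. The library values overlapped for all 10 members, where 6.36% of all genes did not overlap. DESeq2 also called 0 members there, as did every other setting tried.

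In high glucose, edgeR called 0 genes (0%) for TMAO, and 5.35% of all genes had an unadjusted p under 0.05. DESeq2 called 3 genes, none of them a member. Cpe was the 1 member with an unadjusted p under 0.05. It had 1449, 1335 and 1373 FPKM in HGveh and 1321, 1317 and 1268 in HGTMAO, and the groups did not overlap. The log2 fold change of Cpe was -0.09 ± 0.041 SE, with a 95% interval from -11.3% to -0.444% (edgeR unadjusted p = 0.0357, adjusted p = 0.910).

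Scg3 was the second member whose libraries did not overlap for TMAO in high glucose, and it lay on the other side. It had 306, 335 and 330.1 FPKM in HGveh and the 3 values given above in HGTMAO, with HGveh replicate 1 the lowest. Its log2 fold change was 0.09 ± 0.043 SE (edgeR unadjusted p = 0.0568, adjusted p = 0.910). Of all genes, 11.1% did not overlap in this comparison, 5.47% with TMAO above and 5.65% with TMAO below, so that 1 of 10 members on each side stands beside a similar background.

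The widest interval for TMAO in high glucose belonged to Pcsk1n, from -17.2% to 0.129%, around a log2 fold change of -0.14 ± 0.065 SE. Over all 10 members the intervals ran from -17.2% to 13.4%. Vgf was at -0.07 ± 0.048, with HGveh and HGTMAO libraries that overlapped. With the GC correction Pcsk1n was at -0.09, and Vgf changed sign to 0.04. Averaged over glucose levels, TMAO left 0 members and 0 genes (0%) called by edgeR and 2 genes, neither a member, by DESeq2, with 3.62% of all genes and 0 members at an unadjusted p under 0.05. The interaction of TMAO and glucose was called for 0 members and 0 genes (0%) by edgeR and for 1 gene, not a member, by DESeq2, with 3.36% of all genes and 0 members at an unadjusted p under 0.05. These comparisons share libraries with the ones above. A p-value above the threshold does not show that the values were equal.

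The differences in high glucose with TMAO followed base composition across all genes, and the members lie at different points of that range. For TMAO in high glucose, the median log2 fold change was 0.037 over the 4113 genes under 45% GC, 0.014 from 45% to 50%, -0.012 from 50% to 55%, and -0.055 over the 3432 genes at 55% GC or more. For glucose with TMAO the 4 medians were 0.040, 0.014, -0.014 and -0.056. For glucose with vehicle they ran only from -0.0050 to 0.0068, and for TMAO in low glucose from -0.0096 to 0.010. The 3 GC-rich members, Vgf, Ptprn and Pcsk1n, are also those with log2 fold changes from -0.14 to -0.07 for TMAO in high glucose beside Cpe (49.7% GC, -0.09).

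Values were therefore also computed with a correction for GC content in each library, an alternative chosen after the data had been seen. With it, the glucose response of Vgf had an edgeR adjusted p of 1.41e-06 with vehicle (log2 fold change 0.30) and of 8.80e-07 with TMAO. For TMAO in high glucose, Ptprn moved from -0.07 to -0.0038. Cpe stayed at -0.09 and Scg3 moved from 0.09 to 0.07. The number of members called was 1, 1 and 1 for the glucose comparisons with vehicle, with TMAO and averaged, and 0 for each TMAO comparison, as without the correction. Why the fold changes followed GC content was not tested.

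**Figure D3:**
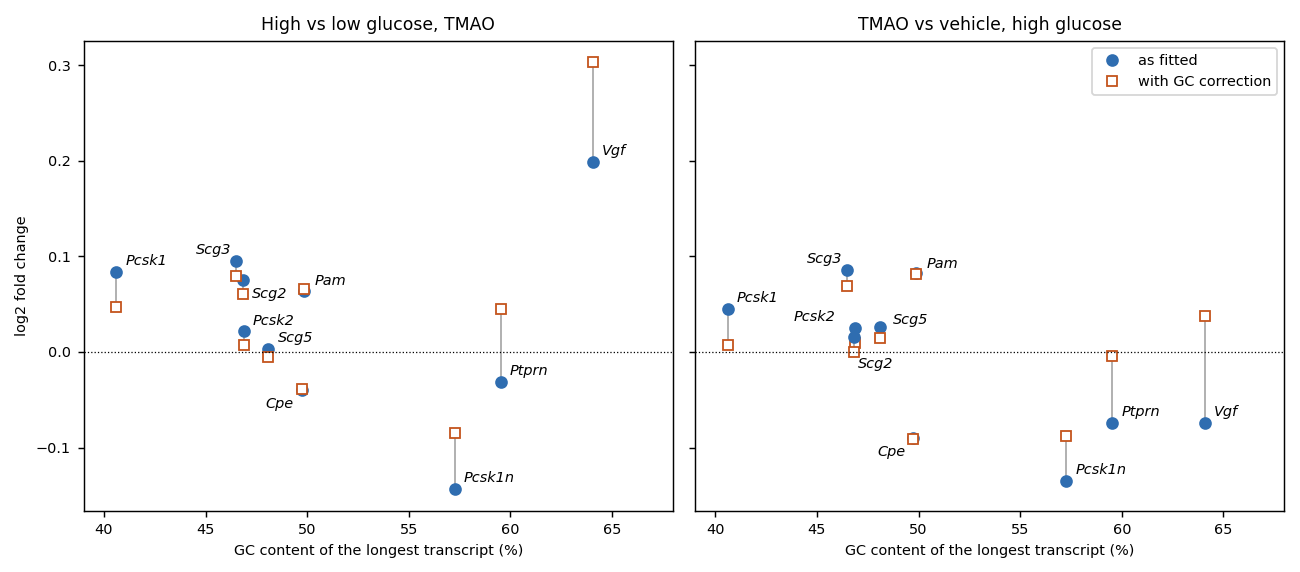
Log2 fold change of the 10 genes against the GC content of their longest transcript, as fitted (filled circles) and with the GC correction (open squares), for glucose with TMAO (left) and TMAO in high glucose (right). The GC-rich genes Vgf, Ptprn and Pcsk1n move up with the correction, Vgf from 0.20 to 0.30 on the left and from -0.07 to 0.04 on the right, while Cpe stays at -0.09 on the right.

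The genes whose library values were most like those of Vgf were Mafa, Cbarp and Fam122a. Likeness was the Pearson correlation of log2 CPM (counts scaled to library size) over the 12 libraries, searched over 12299 genes with a mean of at least 50 counts, and it was 0.983, 0.981 and 0.949. Mafa is a beta cell transcription factor that drives insulin transcription, Cbarp encodes a regulator of voltage-gated calcium channels, and Fam122a encodes a regulator of a protein phosphatase. Their log2 fold changes for glucose averaged over treatments were 0.54, 0.38 and 0.28, against 0.25 for Vgf. Their GC content was 65.0%, 63.5% and 59.4%, beside 64.1% for Vgf. The points share libraries, depth and base composition, so the correlations are given as a description.

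**Figure D4:**
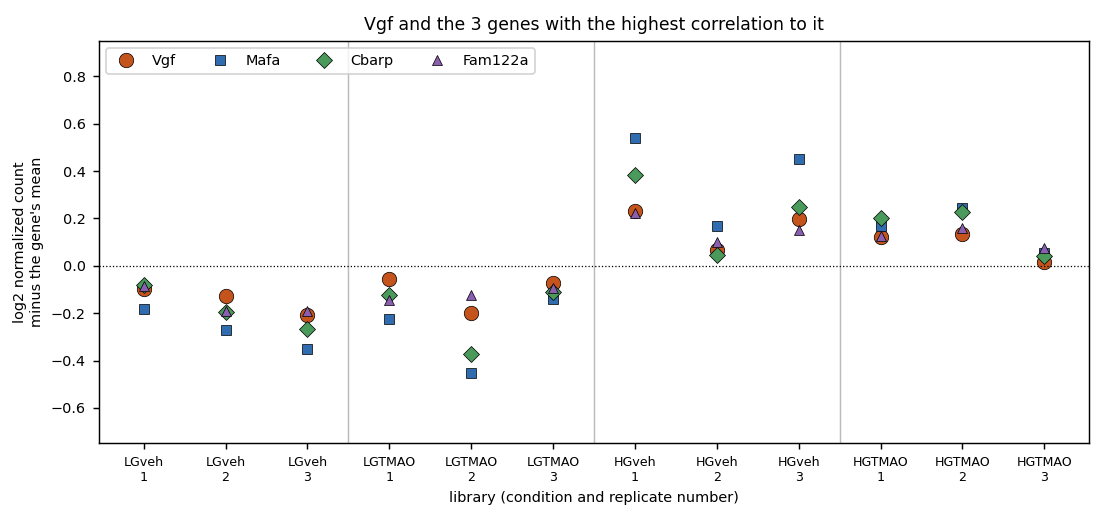
Log2 normalized count of Vgf and of the 3 genes with the highest correlation to it, each minus the gene's own mean, in the 12 libraries in label order. In low glucose all 4 genes lie below 0 and in high glucose above 0, and within HGveh all 4 are highest in replicate 1 and lowest in replicate 2.

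Other genes of the granule pathway were followed in 5 lists with 59 genes, of which 48 were tested. Like the members, the lists were chosen with earlier results of these data known, so their counts beside all genes are a description. In the glucose comparison averaged over treatments, 4 of the 48 were called higher and 0 lower by edgeR, beside 4.13% of all genes called higher and 8.19% called in either direction (the median log2 fold change of the 48 was 0.045, and of all genes 0.0011). By list, 0 of 5 other proprotein convertases and 0 of 8 other carboxypeptidases and finishing enzymes were called. Of 15 hormones, neuropeptides and other cargo, 2 were called (Gcg and Iapp). Of 12 genes listed under granule biogenesis and sorting, 1 was called (Syt4). Of 8 genes listed under granule acidification and zinc loading, 1 was called (Ostm1). Syt4 and Ostm1 were also the 2 called with vehicle and the 2 called with TMAO, where 1.99% and 2.0% of all genes were called higher. In the TMAO comparisons 0 of the 48 were called, where 0.00616% of all genes were called in low glucose and 0% in high glucose, in the average and for the interaction.

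Syt4, synaptotagmin 4, a protein of granule membranes that tunes exocytosis, had a mean of 37.7 ± 1.56 FPKM (SD, n = 3) in LGveh and 37.4 ± 2.66 in LGTMAO, and of 47.2 ± 3.80 in HGveh and 49.97 ± 2.71 in HGTMAO. The log2 fold change averaged over treatments was 0.37 (edgeR adjusted p = 2.93e-07), and it was called in every setting and without each library in turn. Ostm1, the partner of a lysosomal chloride transporter, had 7.99 ± 0.268, 7.81 ± 0.334, 9.26 ± 0.554 and 9.26 ± 0.472 in the same order. Its average log2 fold change was 0.23 (adjusted p = 0.000176), called without each library, but within a single treatment the call was lost with limma on FPKM and without some libraries (LGveh replicates 2 and 3, HGveh replicates 2 and 3, LGTMAO replicate 3 and HGTMAO replicate 2). Without a library its log2 fold change ran from 0.17 to 0.26 with vehicle and from 0.21 to 0.29 with TMAO.

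The hormone genes changed less. Gcg, which encodes proglucagon, a substrate of the convertases, had means of 208 and 207.6 FPKM in LGveh and LGTMAO and of 226 and 224 in HGveh and HGTMAO. Its average log2 fold change was 0.11 (edgeR adjusted p = 0.0102). Iapp, which encodes the amyloid polypeptide released with insulin, had means of 11716, 11738, 12240.4 and 12734 in the same order. Its average log2 fold change was 0.09 (adjusted p = 0.0413). The call was lost with limma on FPKM and in 9 of the 12 fits that left out a library, all but those without LGveh replicate 1, LGTMAO replicate 1 and HGveh replicate 1 (log2 fold change 0.08 to 0.11). Ins1, Ins2, Chga and Chgb were not called in any comparison, and their log2 fold changes for glucose were between 0.01 and 0.08 with either treatment.

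**Figure D5:**
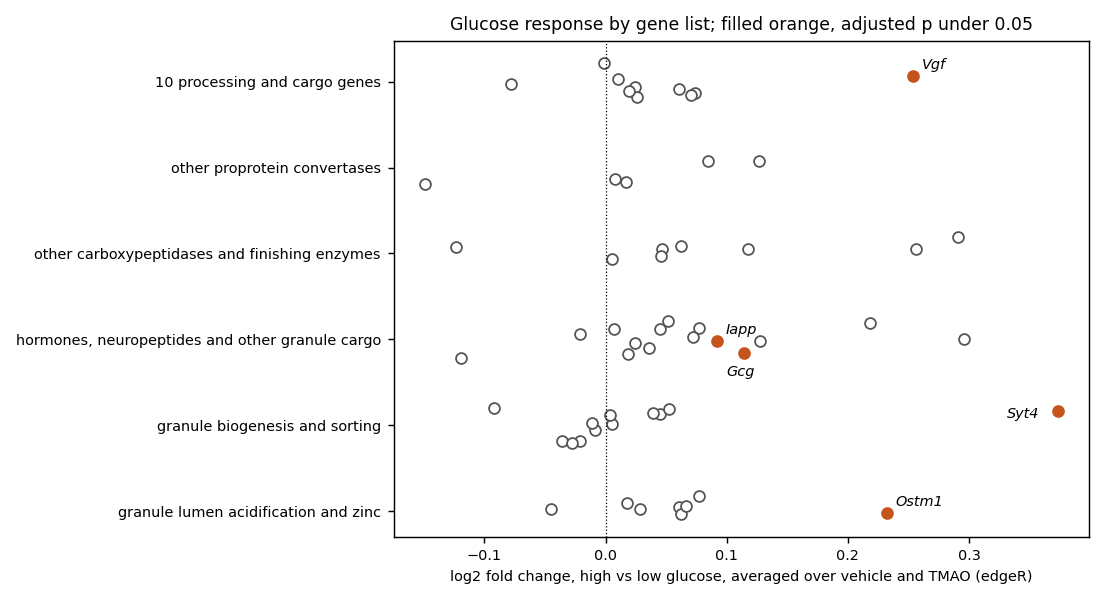
Log2 fold change of high against low glucose, averaged over vehicle and TMAO, for the 10 genes and for the tested genes of 5 lists (1 point per gene), with genes called at an adjusted p under 0.05 in filled orange and named. Vgf (0.25), Syt4 (0.37), Ostm1 (0.23), Gcg (0.11) and Iapp (0.09) are called, all on the side of high glucose.

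Some of the members share their locus with other annotated genes. Pcsk2 overlaps the antisense RNAs Pcsk2os1 and Pcsk2os2, which had means of 371 and 60.2 counts per library beside 26716 for Pcsk2. Pam overlaps B230216N24Rik and the pseudogene Gm3531 on the same strand, with 617 and 292 counts beside 8052. The genes overlapping Pcsk1n, Scg3 and Ptprn had fewer than 10 counts on average. Whether the counting used strand is not given in the sources used here, so reads at these loci may be split. The coordinates of all 10 genes in the tables equal those of GENCODE M21 on GRCm38. Vgf lies at chr5:137026392-137033351 on the plus strand, Cpe at chr8:64592542-64693054 on the minus strand and Scg2 at chr1:79434669-79440120 on the minus strand.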

How the data were processed

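RNA-seq of 12 MIN6 libraries was analysed, with 3 biological replicates of each of 4 conditions taken from the sample labels. The authors deposited a table of counts (fragments per gene, not normalized) and a table of FPKM values. The submitters' processing notes name mm10, HISAT2 2.0.5, featureCounts 1.5.0-p3 and DESeq2 1.16.1 without saying what each was used for. Libraries were made with poly-T selection and the NEBNext Ultra kit, per the study's methods.

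The count model was fitted with edgeR 4.0.16 (R 4.3.3): filterByExpr by condition, TMM normalization and the robust quasi-likelihood test, with all 12 libraries in 1 model of the condition means and without a replicate block. Benjamini-Hochberg adjusted p-values cover all 16222 genes tested, and genes were called under 0.05. Normalized counts are counts scaled by TMM library sizes. A standard error is the log2 fold change divided by the square root of F. The edgeR test of glucose with vehicle was also run on simulated counts with known changes and no trend with base composition. The other comparisons and settings were not tried on simulated counts. Base composition was that of the longest GENCODE M21 transcript, known for 97.1% of the tested genes. Alternatives were DESeq2 size factors, the Wald test of DESeq2 1.42.0, other count filters, limma 3.58.1 on log2(FPKM + 1) and log2(FPKM + 0.1), the replicate number as a block, only the libraries of a comparison, each library left out, and, added later, a GC correction. The 10 genes and the lists were chosen with earlier results of these data known. All 10 are named. List genes are named when called, and Ins1, Ins2, Chga, Chgb and Ptprn2 in any case. Of the cell type markers, 1 gene is not reported here.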

Additional observations from a re-analysis of the deposited data

How the results depend on the processing

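For glucose with vehicle, Vgf was the 1 member called in all 10 settings (log2 fold change 0.30 to 0.31) and in the 6 fits without a library (0.28 to 0.36). For glucose with TMAO the number of members called was 1, but 2 with no filter on low counts (Pcsk1n and Vgf), 0 with limma on log2(FPKM + 1) and 0 on log2(FPKM + 0.1), and 0 to 1 without a library. The cause was not tested. For glucose averaged over treatments it was 1, but 2 with the GC correction and replicate block together (Scg2 and Vgf), and 1 to 2 without a library. For the TMAO comparisons and the interaction it was 0 in all settings. Pooled over the 10 settings there were 641 refitted values of members not called, and 26 of them changed sign. Of these, 22 fell under the GC corrections, with 11 of 67 values in each. Every other setting changed the sign of at most 3 values. The largest value that changed sign was 0.11 in size on the log2 scale.

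With the replicate block, the values of Vgf were 0.31 with vehicle, 0.20 with TMAO and 0.25 averaged (edgeR adjusted p = 1.84e-05, 0.00422 and 8.07e-07), with 1 member called in each. Added to this model without a GC correction, the block changed no member's call, and over all genes it moved the calls from 536 to 717, from 591 to 783 and from 1328 to 1678. Added to the GC-corrected model, it brought in Scg2 for the average (adjusted p = 0.0620 without and 0.0212 with the block). The labels say nothing of what a replicate number shares. Deviations of same-numbered libraries correlated by 0.033 on average (from -0.038 to 0.21 over 18 pairs) and those of different-numbered libraries by -0.016 (36 pairs), and not every same-numbered pair was above 0.1, so the numbers were not taken to pair the libraries. As a hint from the data, 9 of 12 libraries correlated best with their own number. With 3 replicates per condition, each gene's interval sets how small a difference could be seen.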
